A study of Mus musculus with 10 samples.

Results

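Fibroblast growth factor (FGF) ligands and receptors were examined in whole kidneys of E13.5 mouse embryos. The members were the rows of the series table with the gene symbol Fgf1, Fgf2, Fgf7, Fgf8, Fgf9, Fgf10, Fgf20, Fgfr1, Fgfr2 or Fgfrl1, which made 10 of 35663 rows and comprised 7 ligands and 3 receptors. Bulk RNA-seq libraries came from 4 wild-type samples, 3 Foxd1GC control samples (genotype label Foxd1-Cre) and 3 Ntn1SPKO samples (genotype label Foxd1-Cre; Ntn1c/c), all with the strain label C57/b6. Foxd1GC expresses Cre in cortical stromal progenitors and their descendants, so in Ntn1SPKO kidneys the floxed Ntn1 alleles, encoding the secreted guidance cue netrin 1, were removed from stroma, and the control kidneys carried the same Cre allele. Figure legends of the study count each embryo as a replicate, but the labels do not tie libraries to embryos or litters, so p-values measure the spread between these samples. In whole kidneys, fewer cells of a type and less RNA per cell cannot be told apart.

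Most FGFs are secreted ligands that bind receptor tyrosine kinases together with heparan sulfate and signal through the Ras and MAP kinase relay. In the developing kidney, FGF9 and FGF20 maintain nephron progenitors, FGF8 is required in newly formed nephrons, and FGF7 and FGF10 signal from mesenchyme to the FGFR2 of the ureteric bud. FGFRL1 binds FGFs but lacks the intracellular kinase domain, and it is required for nephron formation.

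The levels below are sums over each gene and do not separate the splice forms of a receptor.

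Levels are given in FPKM, fragments scaled to transcript length and to the size of the library, which can be compared between genes because they are per length. The deposited values contain no counts and the sequencing depth is unknown, so no counting interval was attached to a level. Summed FPKM was 795829 to 874966 in 9 libraries and 1002640 in wild-type replicate 3. Nephron progenitor markers were present in all libraries, with Six2 at 63.1 to 96.4 FPKM. The targeted gene, Ntn1, was at 16.3, 13.1 and 10.7 FPKM in Ntn1SPKO replicates 1 to 3, below the Foxd1GC control (24.2 to 51.4 FPKM) and wild-type libraries (27.1 to 46.3 FPKM). Foxd1GC control replicate 3 stood apart. Its 16 skeletal muscle markers summed to 474.6 FPKM against 21.3 to 118.7 FPKM in the other 9 libraries, and its 12 ureteric bud markers summed to 142 FPKM against 289 to 344 FPKM. Y-linked transcripts summed to 88.6 to 98.1 FPKM in all 3 Ntn1SPKO libraries, Foxd1GC control replicate 2 and wild-type replicate 3, and to at most 1.02 FPKM in the other 5 libraries. The first 5 are called Y-positive below, and embryo sex was unevenly spread over the groups. As all mutants were Y-positive, a difference adjusted for embryo sex sets them against 1 library alone. That library is Foxd1GC control replicate 2 or wild-type replicate 3.

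**Figure D1:**
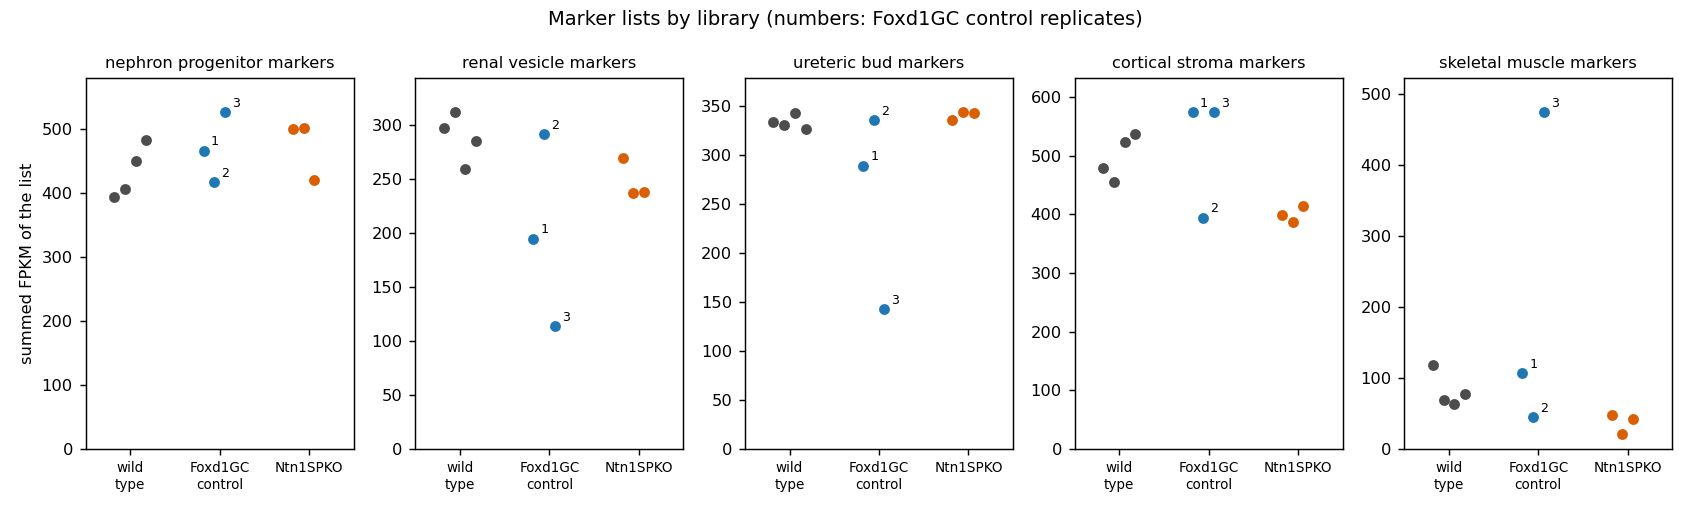
Summed FPKM of marker lists (y axis, linear from 0) for wild-type, Foxd1GC control and Ntn1SPKO libraries (x axis), 1 point per library, with Foxd1GC control libraries numbered by replicate. Foxd1GC control replicate 3 has the highest skeletal muscle sum (474.6 FPKM) and the lowest ureteric bud (142 FPKM) and renal vesicle (114 FPKM) sums.

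The receptors were the most abundant members. In all 10 libraries Fgfr1 had the highest level, Fgfr2 the next and Fgfrl1 the next after that, and every ligand was lower. Fgfr1, a kinase receptor found mainly in kidney mesenchyme, had levels of 89.9 to 132 FPKM. Fgfr2, the receptor of the ureteric bud and also of mesenchyme, had levels of 57.0 to 84.2 FPKM. Fgfrl1 was the steadiest of the receptors, at 22.9 to 28.5 FPKM. The summed level of the 3 receptors was 5.26 to 7.47 times that of the 7 ligands. The ratio of Fgfr1 to Fgfr2 was 1.16 to 1.64 in 9 libraries and 2.32 in Foxd1GC control replicate 3, where Fgfr1 was at its highest and Fgfr2 at its lowest.

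Among ligands, Fgf10 and Fgf8 had the highest medians, although Fgf2 exceeded Fgf8 in Foxd1GC control replicate 3. Fgf10 had levels of 6.85 to 9.88 FPKM and Fgf8 of 5.33 to 9.62 FPKM, and these ranges overlapped. Fgf8 exceeded Fgf10 in each of the 4 wild-type libraries, with a ratio of Fgf10 to Fgf8 of 0.712 to 0.986. In all 6 libraries with the Foxd1GC allele the order was the opposite, with a ratio of 1.17 to 1.74. This ratio was chosen after the levels were known and was not tested. The levels themselves did not separate in this way. Fgf8 in Ntn1SPKO replicate 1, at 8.47 FPKM, lay within the wild-type range of 7.43 to 9.62 FPKM. Fgf2, Fgf9, Fgf1 and Fgf20 followed with overlapping ranges, from 2.27 FPKM (Fgf20 in wild-type replicate 1) to 7.20 FPKM (Fgf2 in Foxd1GC control replicate 3). Fgf7 had the lowest median, at 1.38 FPKM, and the widest spread, with a highest level 5.64 times its lowest. That spread rested on Foxd1GC control replicate 3, at 4.75 FPKM, as all other libraries were at 0.842 to 1.93 FPKM. Fgf10, the close relative of Fgf7 and also a mesenchymal ligand, had the narrowest spread of the ligands, with a highest level 1.44 times its lowest.

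**Figure D2:**
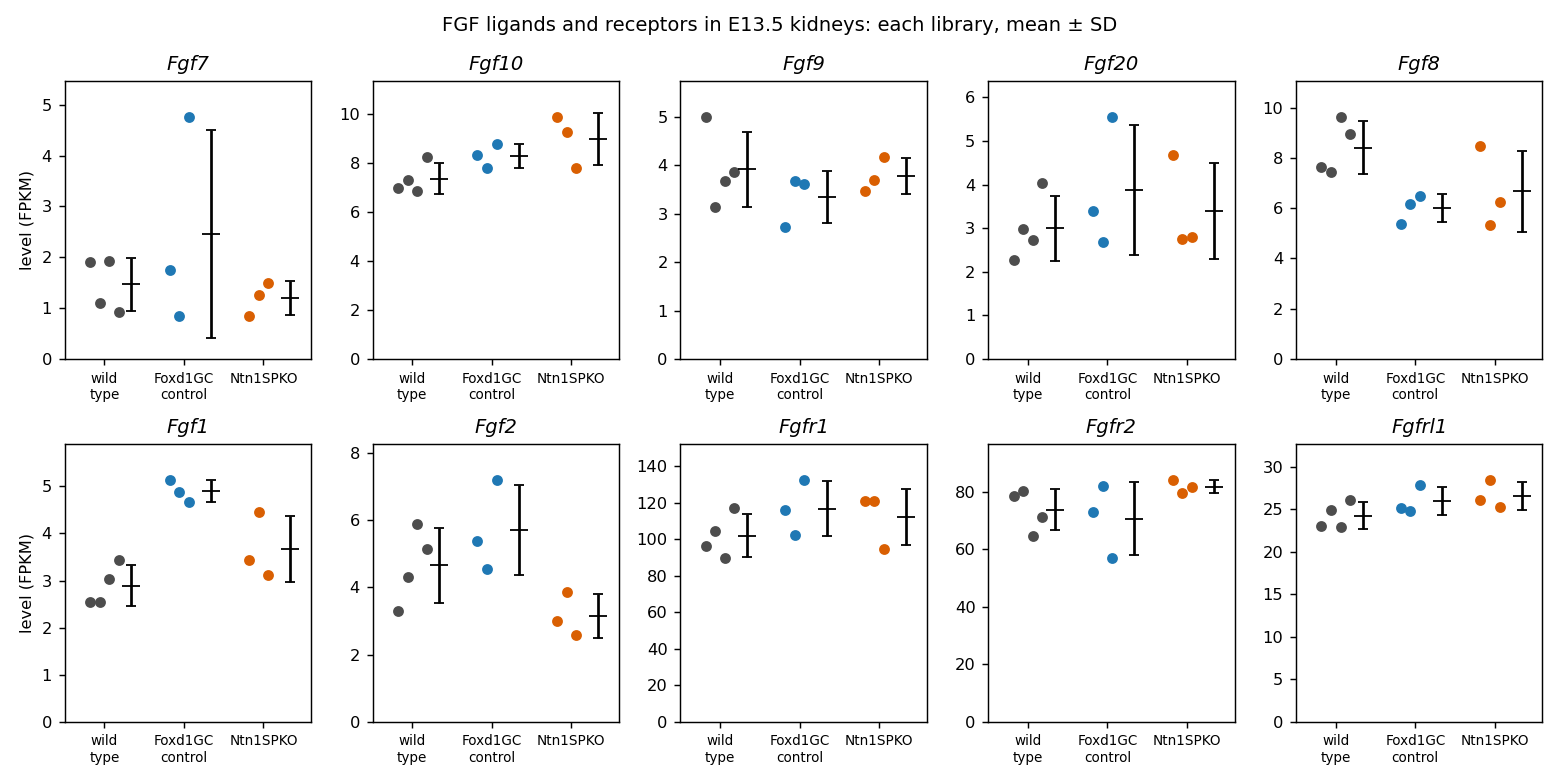
Level in FPKM (y axis, linear from 0, a scale for each gene) of the 7 ligands and 3 receptors in wild-type, Foxd1GC control and Ntn1SPKO kidneys (x axis), with 1 point per library and the mean ± SD beside each group. The Ntn1SPKO points lie below all Foxd1GC control points for Fgf1 and Fgf2, and the Foxd1GC control points lie above all wild-type points for Fgf1 and below them for Fgf8.

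The composition of the ligand pool was described by the share of each ligand in the summed FPKM of the 7 ligands. The shares make up a whole, so each depends on the levels of the other ligands. Fgf10 took 27.7 to 30.3% in Ntn1SPKO libraries, 21.4 to 26.0% in Foxd1GC control libraries and 20.3 to 25.4% in wild-type libraries. Its level in Ntn1SPKO libraries, 7.83 to 9.88 FPKM, overlapped those of Foxd1GC control (7.81 to 8.78 FPKM) and wild type (6.85 to 8.28 FPKM). Fgf2 took 8.93 to 12.6% in Ntn1SPKO libraries against 14.9 to 17.5% in Foxd1GC control libraries, and its wild-type range of 11.1 to 17.5% overlapped both. The share of Fgf8 was 25.8 to 28.5% in wild-type libraries, above every Foxd1GC control and Ntn1SPKO library (15.8 to 25.1%). These shares were chosen for description after the levels were known and were not tested.

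**Figure D3:**
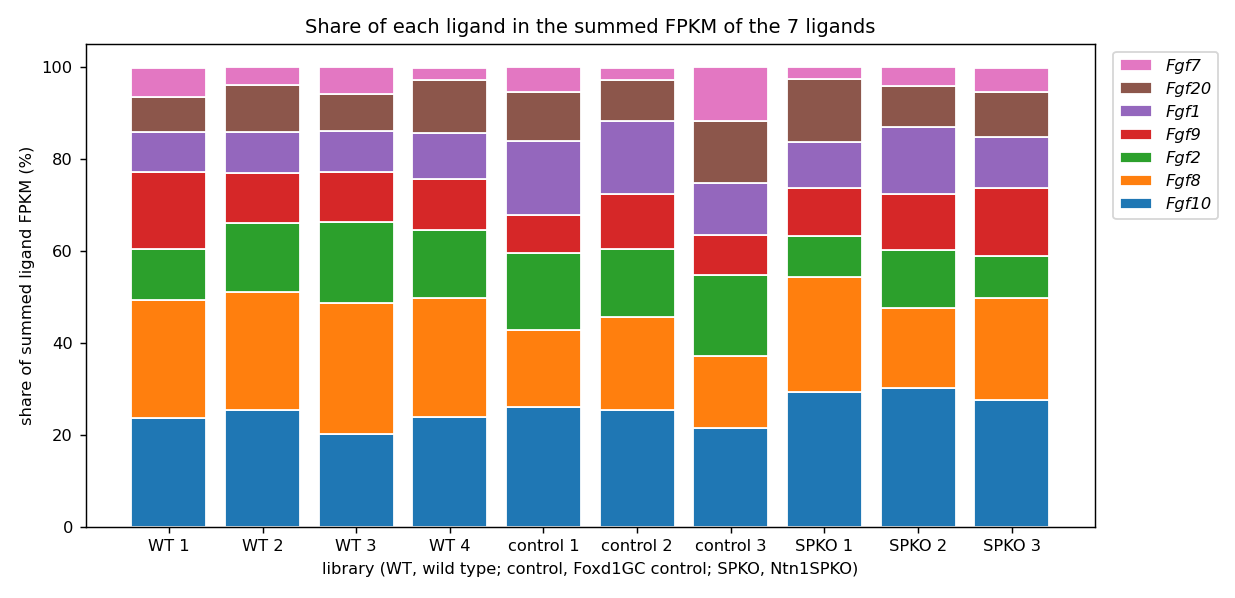
Share of each ligand in the summed FPKM of the 7 ligands (y axis, %) in each of the 10 libraries (x axis), as stacked bars. The Fgf8 segment is 25.8 to 28.5% in wild-type libraries, and the Fgf7 segment reaches 11.6% in Foxd1GC control replicate 3.

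The comparison of Ntn1SPKO with Foxd1GC control kidneys addressed the effect of stromal Ntn1 loss with the Cre allele held constant. No member passed the threshold, an adjusted p below 0.1 (limma, Benjamini-Hochberg over all tested genes) together with at least a 2-fold change, which 0.055% of 14550 tested genes passed. Fgf1 and Fgf2 were the only members whose groups did not overlap, 2 of 10 against 19.9% of tested genes, a share near that of all genes. The same genes were the 2 of 10 members with an unadjusted p below 0.05, against 10.7% of tested genes. The median log2 fold change was -0.01 over members and 0.0067 over all tested genes.

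Fgf2, a ligand released without a classical signal peptide, had the largest difference. Its levels were 3.02, 3.87 and 2.58 FPKM in Ntn1SPKO replicates 1 to 3 and 5.37, 4.56 and 7.20 FPKM in Foxd1GC control replicates 1 to 3. Each mutant library was lower than each control library. The log2 fold change was -0.83 ± 0.22 (SE; 95% interval -1.36 to -0.30; limma adjusted p = 0.447), and the two-sided exact permutation p was 0.1, the smallest that 3 against 3 libraries allow. It was -0.65 without Foxd1GC control replicate 3 (limma adjusted p = 0.673). With embryo sex as a covariate it was -0.54. That value is the contrast among Y-positive libraries, the 3 mutants (2.58 to 3.87 FPKM) against Foxd1GC control replicate 2 alone (4.56 FPKM). Of the cortical stroma markers, 9 of 10 were lower in the mutant, among them Ntn1 itself, the deleted gene. Their sums, which include Ntn1, were 388 to 415 FPKM against 394 to 575 FPKM, with no marker at 0. The sum of Foxd1GC control replicate 2, 394 FPKM, lay within the mutant range. Skeletal muscle markers were lower for 13 of 13 tested, with sums of 21.3 to 47.0 against 44.2 to 474.6 FPKM and Ckm listed at 0 in all 3 mutants. Their part in the Fgf2 difference was not tested. Exons of Fgf2 overlap Nudt6 on the opposite strand and Gm43439 on the same strand over 895 bases, none of them coding in both genes of a pair.

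Fgf1, a broadly binding ligand of the same subfamily, was at 3.42, 4.46 and 3.11 FPKM in the mutants and 5.13, 4.88 and 4.68 FPKM in the Foxd1GC controls. All mutant values were below all control values. The log2 fold change was -0.42 ± 0.155 (SE; limma adjusted p = 0.447; exact permutation p = 0.1), and it was -0.46 without Foxd1GC control replicate 3. Erythroid markers were lower in the mutant for 9 of 9 genes, with sums of 4889 to 18630 FPKM against 7943 to 18060 FPKM and none at 0. The highest erythroid sum was in Ntn1SPKO replicate 3, which had the lowest mutant level of Fgf1. Liver markers were lower for 5 of 5 tested, with sums of 9.19 to 18.6 FPKM against 16.9 to 38.5 FPKM and Serpina1a listed at 0 in Ntn1SPKO replicate 2. Their part in the Fgf1 difference was not tested. The mean level of the mutants, 3.67 ± 0.707 FPKM (SD, n = 3), lay between those of controls, 4.90 ± 0.23 FPKM (n = 3), and wild type, 2.89 ± 0.433 FPKM (n = 4).

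For the remaining ligands the groups overlapped. Fgf7 was at 0.842, 1.26 and 1.496 FPKM in the mutants and 1.75, 0.847 and 4.75 FPKM in the controls, with a log2 fold change of -0.68 (95% interval -2.11 to 0.75, limma). The Fgf7 difference was -0.06 without Foxd1GC control replicate 3 and -1.24 without Foxd1GC control replicate 2 (limma adjusted p = 0.972 and 0.206). Fgf10 differed by 0.11 (-0.16 to 0.38), Fgf9 by 0.18 (-0.20 to 0.57), Fgf8 by 0.13 (-0.31 to 0.57) and Fgf20 by -0.16 (-0.94 to 0.62) on the log2 scale. These intervals do not reach a 2-fold change in either direction, whereas that of Fgf7 does. Fgf20 has 124 coding bases in common with Micu3 on the opposite strand, and the strand setting of the quantification was not given in the sources used here.

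The receptors also overlapped between groups. Fgfr1 was at 121, 121 and 94.6 FPKM in the mutants and 116, 102 and 132 FPKM in the controls, a log2 fold change of -0.06 (95% interval -0.38 to 0.26). Fgfr2 was at 84.2, 79.6 and 81.8 FPKM in the mutants and 73.2, 81.9 and 57.0 FPKM in the controls, a log2 fold change of 0.23 (-0.09 to 0.55), which was 0.08 without Foxd1GC control replicate 3. Fgfrl1 was at 26.1, 28.5 and 25.3 FPKM in the mutants and 25.1, 24.9 and 27.9 FPKM in the controls, a log2 fold change of 0.03 (-0.16 to 0.23). The Fgfrl1 interval was the narrowest of the members. Without Foxd1GC control replicate 3, a setting chosen after the data were seen, Fgfrl1 joined Fgf1 and Fgf2, making 3 of 10 members with no overlap against 25.6% of tested genes.

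**Figure D4:**
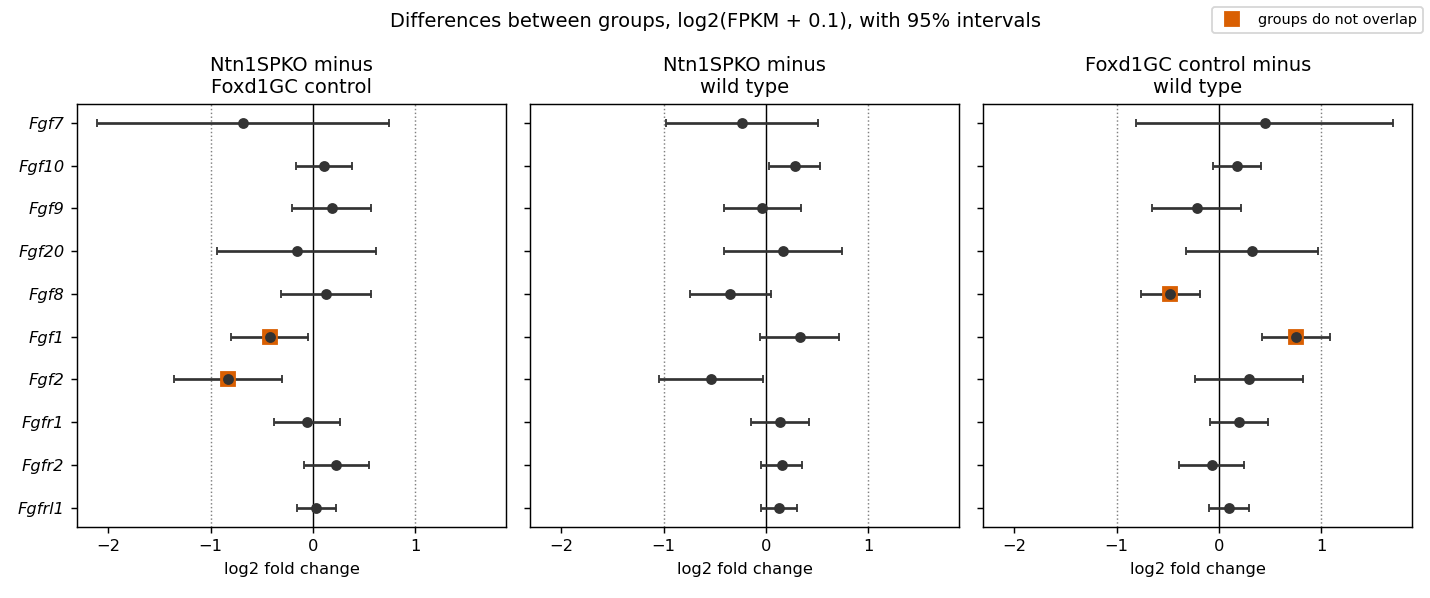
Log2 fold change of each member (x axis, log2(FPKM + 0.1) scale) in the 3 comparisons, with 95% intervals from limma as bars, orange squares where the groups do not overlap and dotted lines at a 2-fold change. Squares mark Fgf1 (-0.42) and Fgf2 (-0.83) in Ntn1SPKO against Foxd1GC control and Fgf1 (0.75) and Fgf8 (-0.48) in Foxd1GC control against wild type.

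Ntn1SPKO kidneys were next compared with wild-type kidneys, which differ in both the Cre allele and stromal Ntn1. No member passed the threshold, which 0.0485% of 14432 tested genes passed, and 0 of 10 members had groups without overlap, against 7.1% of tested genes. The members with an unadjusted p below 0.05 were Fgf2 and Fgf10, 2 of 10 against 5.76% of tested genes. Fgf2 was at 3.30, 4.32, 5.89 and 5.13 FPKM in wild-type replicates 1 to 4, so that wild-type replicate 1 lay within the mutant range of 2.58 to 3.87 FPKM. The log2 fold change was -0.54 ± 0.218 (SE; limma adjusted p = 0.831; two-sided exact permutation p = 0.114), and it was -0.90 with embryo sex as a covariate (adjusted p = 0.102). Cortical stroma markers, Ntn1 among them, were lower in the mutants for 8 of 10 genes, with sums of 388 to 415 FPKM against 456 to 536 FPKM. Skeletal muscle markers were lower for 12 of 12 tested, with sums of 21.3 to 47.0 FPKM against 63.2 to 118.7 FPKM. Ckm was listed at 0 in all 3 mutants, and Myf6 and Ckm in wild-type replicate 2. Their part in the Fgf2 difference from wild type was not tested. Fgf10, the mesenchymal ligand, was at 9.88, 9.29 and 7.83 FPKM in the mutants and 7.01, 7.33, 6.85 and 8.28 FPKM in wild type. Ntn1SPKO replicates 1 and 2 were above all wild-type libraries and replicate 3 was not. The log2 fold change of Fgf10 was 0.28 ± 0.108 (SE; limma adjusted p = 0.783; exact permutation p = 0.0857).

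The other members differed between Ntn1SPKO and wild type by log2 fold changes of -0.35 (Fgf8) to 0.33 (Fgf1). Fgf8 was at 8.47, 5.33 and 6.23 FPKM in the mutants, and 2 of 3 were below the lowest wild-type library. Fgfr2 had a log2 fold change of 0.16 (95% interval -0.04 to 0.35). With embryo sex as a covariate the Fgfr2 difference was 0.34 with a limma adjusted p of 0.0389, short of a 2-fold change, in a fit that called 187 genes and had wild-type replicate 3 as the only Y-positive wild-type library. Fgfr1 and Fgfrl1 differed by 0.14 (-0.15 to 0.42) and 0.13 (-0.04 to 0.31). The progenitor ligands Fgf9 and Fgf20 differed by -0.04 (-0.41 to 0.34) and 0.16 (-0.41 to 0.74). Fgf7 differed by -0.24 (-0.98 to 0.50). Each of these intervals includes no difference and stays within a 2-fold change.

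Foxd1GC control kidneys were compared with wild-type kidneys to describe the background of the Cre allele. No member passed the threshold, which 0.00685% of 14594 tested genes passed. Fgf1 and Fgf8 had groups that did not overlap, 2 of 10 members against 8.09% of tested genes, and both also had an unadjusted p below 0.05, against 7.06% of tested genes. Without Foxd1GC control replicate 3 the count was again 2 of 10, Fgf1 and Fgf8, against 11.8%.

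Fgf1 was at 2.54, 2.54, 3.04 and 3.43 FPKM in wild type, below the 4.68 to 5.13 FPKM of the 3 Foxd1GC controls. It was higher in 3 of 3 control libraries, by a log2 fold change of 0.75 ± 0.142 (SE; 95% interval 0.42 to 1.08; limma adjusted p = 0.665), with a two-sided exact permutation p of 0.0286, the smallest that 3 against 4 libraries allow. The difference was 0.61 to 0.84 over the alternatives. Erythroid markers were also higher in controls for 9 of 9 genes, with sums of 7943 to 18060 FPKM against 4767 to 10800 FPKM and none at 0. Liver markers were higher for 5 of 5 tested, with sums of 16.9 to 38.5 FPKM against 11.6 to 29.2 FPKM and none at 0. Their part in the Fgf1 difference was not tested.

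Fgf8, the ligand of newly formed nephrons, was at 7.64, 7.43, 9.62 and 8.96 FPKM in wild type and 5.39, 6.16 and 6.48 FPKM in the Foxd1GC controls. It was lower in 3 of 3 control libraries, with a log2 fold change of -0.48 ± 0.126 (SE; limma adjusted p = 0.665; exact permutation p = 0.0286). The difference was -0.40 to -0.58 over the alternatives and was -0.53 without Foxd1GC control replicate 3. Renal vesicle markers were lower as well for 10 of 10 genes, with a median log2 fold change of -0.84, sums of 114 to 291 FPKM against 259 to 312 FPKM and none at 0. The lowest sum was in Foxd1GC control replicate 3, which had the highest control level of Fgf8. Foxd1GC control replicate 2, at 291 FPKM, was within the wild-type range. Ureteric bud markers were lower for 11 of 12. Their part in the Fgf8 difference was not tested.

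The other 8 members overlapped between Foxd1GC control and wild type. Fgf2 differed by 0.29 (95% interval -0.24 to 0.82) and by 0.12 without Foxd1GC control replicate 3. Fgf10 differed by 0.17 (-0.06 to 0.41), with 2 of 3 controls above all wild-type libraries. Fgf9 was at 4.99, 3.14, 3.67 and 3.86 FPKM in wild type and 2.72, 3.67 and 3.61 FPKM in the controls, a difference of -0.22 (-0.65 to 0.21). The lowest Fgf9 level was that of Foxd1GC control replicate 1. Fgf20 was at 2.27, 2.97, 2.72 and 4.03 FPKM in wild type and 3.39, 2.68 and 5.54 FPKM in the controls, a difference of 0.32 (-0.32 to 0.97) that was 0.04 without Foxd1GC control replicate 3. Fgf7 differed by 0.45 (95% interval -0.81 to 1.70) and by -0.18 without Foxd1GC control replicate 3. Fgfr1, Fgfr2 and Fgfrl1 differed by 0.20, -0.07 and 0.10, and the Fgfr2 value was 0.08 without that library. Of the comparisons above, each pair shares libraries, so their values are given side by side and their likeness was not evaluated.

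Of the other Fgf genes, 15 in number and not counting receptors, Fgf18 was the most abundant, with a median of 6.11 FPKM. This was above the medians of 5 member ligands. Fgf18, a ligand of the same subfamily as Fgf8, was at 3.50, 3.07 and 3.32 FPKM in the mutants and 5.73, 6.49, 8.01 and 8.86 FPKM in wild type. All mutant values were below all wild-type values, with a log2 fold change of -1.10 ± 0.157 (SE; limma adjusted p = 0.118; exact permutation p = 0.0286). The cortical stroma and skeletal muscle marker sums were also lower in every mutant than in every wild-type library. Their part in the Fgf18 difference was not tested. These values of Fgf18 are those without a covariate. With embryo sex as a covariate, which sets the mutants against wild-type replicate 3 alone, Fgf18 passed the threshold (-1.26). Over the other alternatives the limma adjusted p was 0.113 to 0.995. Against the Foxd1GC controls, at 7.42, 4.19 and 14.4 FPKM, the log2 fold change was -1.20 ± 0.414 (SE; adjusted p = 0.447), a value named after it had been seen. It was -0.74 without Foxd1GC control replicate 3, -1.62 without Foxd1GC control replicate 2 and -0.34 with embryo sex as a covariate (adjusted p = 0.673, 0.121 and 1). Fgf5, a ligand at 0.351 to 1.85 FPKM, had the largest difference among the other Fgf genes in both comparisons with the Foxd1GC controls. It was at 0.562, 0.359 and 0.351 FPKM in the mutants, 1.58, 0.553 and 1.85 FPKM in the controls and 0.515 to 0.591 FPKM in wild type. Foxd1GC control replicates 1 and 3 were above all other libraries and replicate 2 was within the range of the mutants. The log2 fold change of Fgf5 was -1.32 ± 0.485 (SE; limma adjusted p = 0.447) between Ntn1SPKO and Foxd1GC control, and -0.34 with embryo sex as a covariate. Between Foxd1GC control and wild type it was 1.00 ± 0.401 (adjusted p = 0.665), and 0.70 to 1.49 without 1 library. Without Foxd1GC control replicate 1, the differences between Ntn1SPKO and Foxd1GC control were -1.22 for Fgf18 and -1.13 for Fgf5. A sex covariate with the Y-linked limit at 1 FPKM gives the same values, because only that library is then below the limit. Fgfr3 and Fgfr4, the remaining kinase receptors, had levels of 2.16 to 4.67 and 1.92 to 3.38 FPKM, below Fgfrl1 in every library. Among other receptors and coreceptors, Fgfr3 had the largest difference between Ntn1SPKO and Foxd1GC control, 0.28 ± 0.333 (adjusted p = 0.695). It was -0.18 with embryo sex as a covariate and 0.12 without Foxd1GC control replicate 1. Flrt1, a transmembrane protein that binds FGF receptors, had the largest in the other two comparisons, 0.38 ± 0.164 between Ntn1SPKO and wild type and 0.40 ± 0.224 between Foxd1GC control and wild type (adjusted p = 0.865 and 0.665). The first of these was 0.78 with embryo sex as a covariate (adjusted p = 0.0251, short of a 2-fold change), and the second was 0.22 without Foxd1GC control replicate 3.

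None of the 5 pathway lists had a gene past the limma threshold in any comparison. At an unadjusted p below 0.05 between Ntn1SPKO and Foxd1GC control (10.7% of tested genes) there were 2 of 6 tested other Fgf genes. Other receptors and coreceptors had 0 of 5, and relay genes 3 of 18. Targets and feedback inhibitors had 0 of 13, and heparan sulfate genes 1 of 17. Between Ntn1SPKO and wild type (5.76%) there were 1 of 5, 1 of 5, 0 of 18, 0 of 13 and 2 of 17 in the same order, and between Foxd1GC control and wild type (7.06%) 1 of 6, 0 of 5, 2 of 18, 0 of 13 and 1 of 17. Of the relay from receptor to MAP kinase, 18 of 18 genes were tested, and Frs3, an adaptor of FGF receptors, had the largest difference in each comparison, with log2 fold changes of -0.85 ± 0.39 (Ntn1SPKO against Foxd1GC control), 0.51 ± 0.352 (Ntn1SPKO against wild type) and 1.36 ± 0.344 (Foxd1GC control against wild type; SE, limma adjusted p = 0.447, 0.947 and 0.665). The first of these was -0.52 without Foxd1GC control replicate 3 and -0.51 without Ntn1SPKO replicate 3, and the second was 0.28 to 0.85 without 1 library and 1.19 with embryo sex as a covariate. Of the transcriptional targets and feedback inhibitors, 13 of 14 were tested, with a median log2 fold change of 0.06 between Ntn1SPKO and Foxd1GC control. Etv5, a target transcription factor of FGF and Ret signaling, had the largest difference there, 0.35 ± 0.169, which was 0.17 without Foxd1GC control replicate 3. Etv5 also had the largest between Foxd1GC control and wild type, -0.25 ± 0.148, which was -0.07 without that library. Spry3, a Sprouty feedback inhibitor, had the largest between Ntn1SPKO and wild type, -0.20 ± 0.136 (adjusted p = 0.947). Dusp6, a MAP kinase phosphatase induced by FGF signaling, was at 58.3 ± 0.311 FPKM (SD, n = 3) in Ntn1SPKO, 57.4 ± 3.82 FPKM (n = 3) in Foxd1GC control and 53.6 ± 2.61 FPKM (n = 4) in wild type. The log2 fold change of Dusp6 in Ntn1SPKO was 0.02 against Foxd1GC control and 0.12 against wild type (limma adjusted p = 0.877 and 0.916). Of 17 heparan sulfate genes, Sulf1, an extracellular sulfatase, had the largest difference between Ntn1SPKO and Foxd1GC control, -0.73 ± 0.332 (adjusted p = 0.447), which was 0.0083 with embryo sex as a covariate. Sulf1 differed by 0.75 ± 0.3 between Foxd1GC control and wild type (adjusted p = 0.665), and by 0.53 to 1.12 without 1 library. Between Ntn1SPKO and wild type, Ndst2, a heparan sulfate sulfotransferase, had the largest difference of that list, 0.54 ± 0.178 (adjusted p = 0.706).

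Genes most alike to each member were ranked by Pearson r of log2(FPKM + 0.1) over the 10 libraries, among 14533 genes, as a description that includes differences between groups and libraries. The closest were Tia1 to Fgf1 (r = 0.974), Med20 to Fgf2 (0.941), Tuba1a to Fgf7 (0.96), Misp to Fgf8 (0.885), Inpp1 to Fgf9 (0.869), Tpbg to Fgf10 (0.977) and Rasef to Fgf20 (0.936). For the receptors they were Accs to Fgfr1 (0.937), Kbtbd11 to Fgfr2 (0.982) and Cacna2d1 to Fgfrl1 (0.95). Foxd1GC control replicate 3 lay at an extreme of Fgf2, Fgf7, Fgf20, Fgfr1 and Fgfr2 and so weighs on their values of r.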

How the data were processed

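Whole kidneys at E13.5 were sequenced in bulk. The authors ran Salmon, an alignment-free quantifier, with GRCm38 coding sequences from Ensembl as its reference, and passed the output to tximport. The submitters' processing notes name bcl2fastq 2.17.1.14. The deposited table holds FPKM per gene for 10 libraries, without counts. Attempts to recover the depth from low values gave answers that depended on the method, so none is reported.

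Values were analysed on a log2(FPKM + 0.1) scale, leaving out genes whose mean was under 0.5 FPKM, with limma 3.58.1 (R 4.3.3; eBayes with trend), 1 fit of 2 groups per comparison and Benjamini-Hochberg adjustment over all tested genes. Fold changes on this scale understate changes of low genes. Genes were called at an adjusted p below 0.1 and at least a 2-fold change. The study's count model was not used because the values are not counts. Exact permutation tests (two-sided) were run over libraries. On simulated data with 200 genes changed 4-fold, 185, 196 and 190 were called in Ntn1SPKO against control, Ntn1SPKO against wild type and control against wild type. In the same order, 8, 6 and 1 unchanged genes were called. The changed genes were drawn from those with a mean log2 value above 1. Noise was drawn independently for each gene, without an effect shared by the genes of a library. Changes as small as those of the members were not simulated.

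All 10 members are named. Of each pathway list, the gene with the largest difference in a comparison is named. Fgfr4 and Dusp6 were named outside this rule. The members and lists were chosen with earlier results of these data known, and Fgf18 against the controls, the ratios and shares were added after values were seen. Embryo sex was read from Y-linked transcripts at a limit of 10 FPKM, set after a first limit of 1 FPKM had been fitted and its results seen. Gene overlaps are from GENCODE M21 (GRCm38). Receptor exon sequences are not reported here.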

Additional observations from a re-analysis of the deposited data

How the results depend on the processing

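No member was called under any alternative. Of 410 member values, 393 kept their direction and side of the threshold and 17 reversed. With embryo sex as a covariate, Ntn1SPKO against Foxd1GC control was 0.42 for Fgf7, 0.29 for Fgf20, 0.13 for Fgfr1, -0.0017 for Fgfr2, -0.18 for Fgfr3 and 0.0083 for Sulf1, and Ntn1SPKO against wild type was 0.035 for Fgf9. These values set the mutants against Foxd1GC control replicate 2 or wild-type replicate 3 alone. The Y-linked limit of 10 FPKM was chosen after the sums and a first fit were seen. At the first limit, 1 FPKM, which puts Foxd1GC control replicate 3 (1.02 FPKM) with the Y-positive libraries, only Fgf9 against wild type (0.035) and Fgfr2 in control against wild type (0.0015) reversed. For Ntn1SPKO against wild type this repeats the fit at 10 FPKM. For Ntn1SPKO against control it gives the differences found without Foxd1GC control replicate 1. These repeats are among the 410 values. Leaving out 1 library gave, for Ntn1SPKO against control, Fgf8 -0.055 to 0.27, Fgf20 -0.40 to 0.13, Fgfr1 -0.15 to 0.058 and Fgfrl1 -0.015 to 0.087. It gave Fgf9 -0.13 to 0.085 and Fgf20 -0.081 to 0.31 for Ntn1SPKO against wild type, and Fgf7 -0.18 to 1.00 and Fgfr2 -0.19 to 0.076 for control against wild type. The causes were not tested.

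Genes called over the whole table varied more. For Ntn1SPKO against control, 8 became 21 without the filter, 0 in 1 fit of all 10 libraries, 4 with sex as a covariate (12 at the first limit) and 3 to 78 without 1 library, the highest without Foxd1GC control replicate 2. For Ntn1SPKO against wild type, 7 became 2 at a pseudocount of 1, 18 without the filter, 0 in 1 fit, 187 with sex as a covariate (at either limit) and 1 to 20 without 1 library. For control against wild type, 1 became 2, 9 and 0 at these first 3 settings, 0 at the first limit for sex and 3 to 20 without 1 library. Fgf18 against wild type was called only with sex as a covariate (-1.26), where the mutants are set against wild-type replicate 3 alone. In this comparison the 2 limits give the same fit, so the second is not a further check. Replicate numbers did not pair the samples (correlations of same-numbered libraries -0.0388 to 0.0785). With the replicate number as a block, 4, 6 and 1 genes and no member were called. The depth is unknown, so what it limits could not be assessed.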
